A study of Homo sapiens with 23 samples.

Results

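The H179R line is an MCF10A cell line that stably expresses p53 with the missense change H179R, and its RNA library was set against those of 9 sister lines that each express another missense p53. MCF10A is a non-transformed human mammary epithelial line of basal character. It was 1 of 10 mutant RNA libraries and 1 of 13 RNA libraries in all, in a series of 23 samples that also holds chromatin immunoprecipitation (ChIP) libraries. Of the 9 others, R248Q, R248W, R273C and R273H change residues that touch DNA, and G245S, R175H, Y163C, Y220C and Y234C, like H179R, change residues that hold the DNA-binding domain in shape. The 3 controls were the unmodified MCF10A line (WT), a line with p53 knocked down by short hairpin RNA (WTKD) and a line expressing tagged wild-type p53 (WTOE). All mutant lines were made by lentiviral transduction with V5-tagged p53 and kept their endogenous wild-type p53, whereas wild-type p53 was delivered from another lentiviral vector. The cells received no drug or other treatment before RNA extraction. Each line was sequenced once, so what belongs to the mutation, to the derivation of that line and to that single library cannot be told apart.

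p53 is a transcription factor that binds DNA as a tetramer and switches on genes that stop the cell cycle, repair DNA, limit oxidative stress or trigger apoptosis. Its DNA-binding domain is held in shape by a zinc ion, and the histidine replaced in H179R is one of the residues that hold this ion. Loss of zinc unfolds the domain, and mutant subunits can enter tetramers with wild-type subunits. In mammary epithelium, p63 and its target keratins, laminins and integrins keep cells basal and attached to the basement membrane, and cells that leave this state towards squamous differentiation switch on cornified envelope genes.

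Levels are log2(TPM + 1), where TPM is relative transcript abundance scaled to a fixed library total and corrected for transcript length, and a difference is the H179R level minus the mean level of the 9 other mutant lines. A gene was tested where its level reached 1 in at least 3 of the 13 libraries, which kept 14884 of 58358 genes. At the edge of this filter, 1245 genes reached that level in exactly 3 libraries. Of these, 160 lay above the range of the 9 others by a difference of at least 1, and 0 lay below it. H179R was 1 of the 3 libraries for each of those 160 genes, so they passed only through their H179R level. A further 2177 genes reached the level in only 2 libraries and were left out.

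The read depth behind the TPM values is unknown. H179R had 13640 genes above 0, within the range of 12122 to 15975 over the 13 libraries, and its 50 highest genes took 28.7% of all TPM, against 27.1% to 46.8%. The humanin-like gene MTRNR2L1, which resembles the mitochondrial ribosomal RNA, took 8.79% of the TPM of H179R, the highest share of the 13. All 12 basal epithelial markers of MCF10A were tested and none was at 0 in H179R, with KRT5 at 10.86 against 9.97, 10.43 and 11.85 (lowest, median and highest of the 9 others). Of 11 blood cell markers, 10 were at 0 in H179R and CD14 stood at 2.46, inside the range. Of 7 endothelial markers, 5 were at 0 in H179R, among them VWF and KDR, while CDH5 stood at 2.21 with all 12 other libraries at 0, and PECAM1 stood at 1.80, the highest of the 13 libraries (the next was Y163C at 1.32). CDH5 and PECAM1 did not pass the filter, and their part in the results was not tested. The control libraries are named by their labels throughout.

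The question was which genes set H179R apart from the other missense lines. H179R lay above the highest of the 9 others, and at least 1 above their mean, in 1453 genes (9.76% of those tested), and below the lowest by the same margin in 358 genes (2.41%). The count above includes the 160 genes that passed the filter only through their H179R level, which genes below the range could not do. The 2 counts are therefore not on an equal footing. A further 352 genes lay above and 128 below the range with a smaller difference. Of the 1453 genes, 1093 also exceeded the 3 control libraries, and of the 358 genes, 257 were also below all 3. The fitted test, limma with the spread among the 9 others standing in for the error of the single H179R library, called 0 genes higher and 0 lower at a Benjamini-Hochberg adjusted p under 0.05. At an unadjusted p under 0.05 it gave 401 higher and 108 lower, and the lowest limma adjusted p was 0.113. The median SE of a difference was 1.04, so single differences near 1 were not larger than the spread among lines, and what follows describes sizes and ranges. Over all tested genes the median difference was 0.24 and 59.4% of genes were positive.

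Each of the other lines also had genes outside the range of its own 9 others. The same count was 1535 above and 470 below in R248Q, 1425 and 263 in R248W, 1306 and 317 in Y220C, and 930 and 3804 in Y234C. By these counts, 1 line had more genes above the range than H179R and 4 lines had more genes below. Across genes, its profile was nearest to Y163C (Pearson r = 0.880), Y220C (0.867) and the library labelled WTKD (0.857), and farthest from R273H (0.757) and Y234C (0.759), where genes are not independent replicates. For the 1453 genes above the range, the next highest line was Y163C in 327 genes (22.5%) and Y220C in 235 (16.2%), and least often Y234C, in 40.

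**Figure D1:**
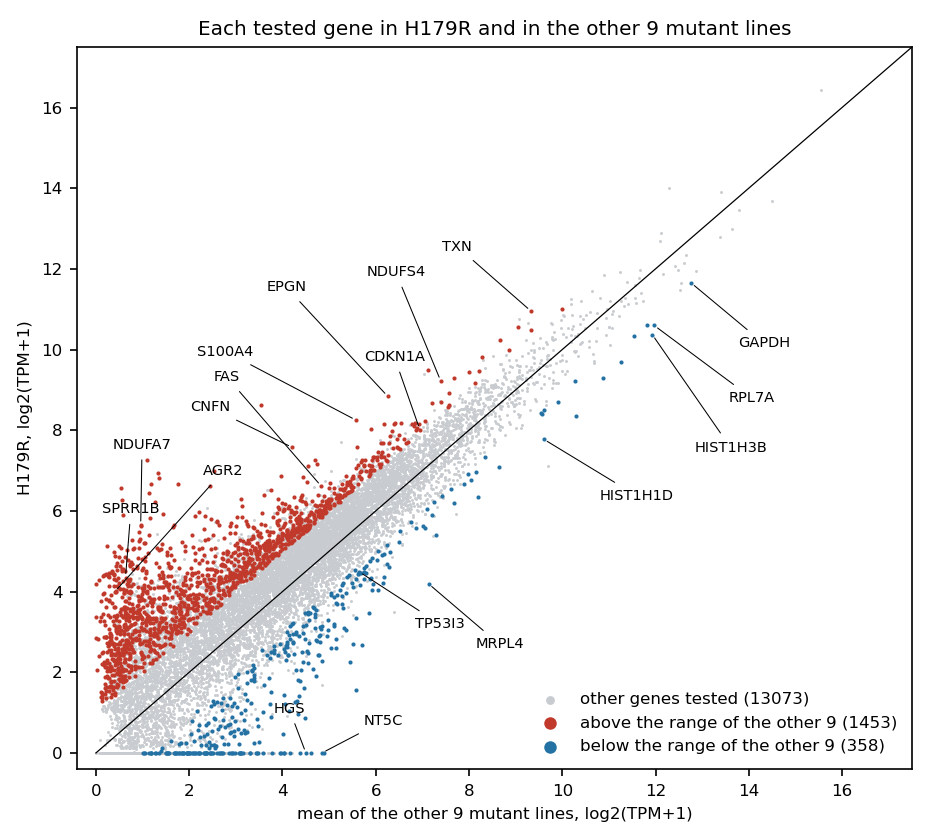
Each point is one tested gene, with the mean level of the 9 other mutant lines on the horizontal axis and the level in H179R on the vertical axis, both as log2(TPM + 1). Coloured points are the 1453 genes above and the 358 genes below the range of the 9 others by a difference of at least 1, and most of them have low to middle levels.

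The largest differences sat in genes with low levels elsewhere. By the rule used to name genes, the 15 largest above the range were led by short RNA genes and pseudogenes, among them RNU7-113P at 7.27 in H179R and 0 in 7 of the 9 others, and RNU6-1053P at 6.57 and 0 in 8 of the 9. Protein-coding genes were therefore ranked separately, after the values were seen. APOC1, a lipoprotein component, stood at 4.64 in H179R and at 0, 0 and 1.55 (lowest, median, highest) in the 9 others. CLIC2, an intracellular chloride channel family member, stood at 4.95 against 0, 0.44 and 2.97. CTSK, a collagen-degrading cathepsin, stood at 4.13 against 0, 0 and 2.36, and EAF2, an elongation factor partner, at 4.06 against 0, 0 and 2.18. In each of these 4 genes at least one other mutant line was listed at 0, and none reached the level in H179R. The antisense RNA RBMS3-AS2 stood at 4.29 in H179R and no higher than 0.64 in the 9 others, but at 3.22 and 3.93 in the libraries labelled WT and WTOE. No other mutant line reached the filter level of 1 for RBMS3-AS2, so only H179R and control libraries could carry it past the filter. Of the 1453 genes above the range, 776 were at 0 in at least one other mutant line.

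On the other side, several protein-coding genes were listed at 0 in H179R and above 0 in every other mutant line. NT5C, a cytosolic nucleotidase, was at 0 against 3.34, 5.2 and 5.54 (limma adjusted p = 0.149), and was also at 0 in the library labelled WTOE. HGS, which sorts ubiquitinated receptors on endosomes, was at 0 against 3.46, 4.20 and 7.82. THAP7 was at 0 against 2.54, 4.06 and 6.19, and FKBP8, a chaperone of the outer mitochondrial membrane, at 0 against 1.6, 4.14 and 6.25. An exact 0 in TPM can be a failed estimate, and 91 of the 358 genes below the range were at 0 in H179R. MRPL4, a mitochondrial ribosomal protein, was low without being absent, at 4.19 against 6.47, 6.98 and 8.26, a difference of -2.94 (SE 0.67, limma adjusted p = 0.209). PITX1, a homeobox factor, stood at 1.41 against 2.42, 4.91 and 5.86. BNIP1, which takes part in membrane fusion at the endoplasmic reticulum, stood at 0.46 against 2.81, 3.76 and 5.40.

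**Figure D2:**
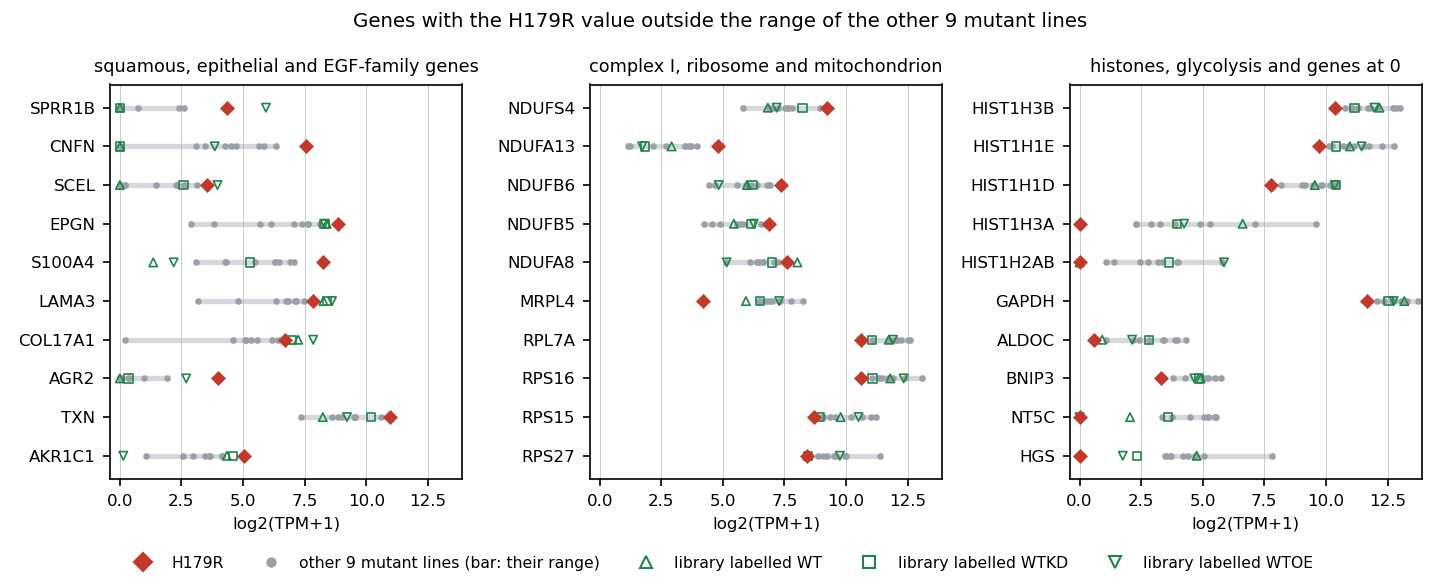
Levels in log2(TPM + 1) of 30 genes outside the range of the 9 others, one gene per row in panels by gene group, with H179R, the 9 other mutant lines and the 3 control libraries as separate markers. CNFN and S100A4 lie to the right of every other mutant line and NT5C and HGS sit at 0, to the left of all 9.

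Direct p53 targets held 7 genes above the range in H179R and 1 below. Of 33 listed targets 32 were tested, so the shares were 21.9% above (9.76% of all tested genes) and 3.12% below (2.41%). The median difference of the list was 0.82 against 0.24 for all genes, and 28 of 32 targets were above the mean of the 9. With each line set against its own 9 others, this median was the highest of the 10 lines, ahead of Y163C at 0.62, with the others between -0.95 and 0.39. The summed TPM of the list was 2585 in H179R, against 1136, 1613 and 2909 in the 9 others, so at least one other line had a larger sum.

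CDKN1A, which encodes the cyclin-dependent kinase inhibitor p21, stood at 8.02 in H179R and at 5.18, 7.09 and 7.66 in the 9 others, above every mutant line and above the libraries labelled WT (7.78), WTKD (6.95) and WTOE (6.46). The difference was 1.07 (SE 0.76). It was 0.85 without R273H and 0.99 without G245S, under the margin of 1 in both cases, and CDKN1A was also not counted under 3 of the other alternatives. MDM2, the ubiquitin ligase that degrades p53, stood at 6.43 against 4.34, 5.74 and 6.22, above all 9 but by a difference of 0.87 (SE 0.75). CCNG1, a cyclin induced by p53, lay inside the range at 9.21 against 6.48, 8.37 and 9.97, and so did SFN, the 14-3-3 protein that holds cells in G2, at 8.62 against 7.09, 8.56 and 9.81.

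The ChIP data of the series give a place where p53 binds upstream of CDKN1A in these cells. H179R itself was not analysed here by ChIP. The peak called with the V5 antibody in the line labelled WTOE spans chr6:36676237-36676570 (GRCh38), with a fold enrichment of 6.15 and a −log10 q-value of 11.2. Its summit lies 58 bases upstream of the nearest annotated start of CDKN1A, which is the outermost start of the gene (chromosome 6, 36676460 to 36687337, plus strand). The stretch printed below stops just before that start, although the peak runs on to 36676570. Within the 334 bases of the peak a scan found 2 matches to the p53 half-site decamer, both upstream of that start. They are shown in capitals in the plus strand of chr6:36676342-36676459:
CDKN1A element: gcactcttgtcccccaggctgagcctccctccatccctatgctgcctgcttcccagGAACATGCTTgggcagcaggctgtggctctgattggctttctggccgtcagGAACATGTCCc

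The sestrins, which restrain growth signalling and oxidation under stress, were both above the range. SESN2 stood at 3.9 against 0, 1.44 and 2.72, a difference of 2.44 (SE 1.18), the largest of the list, with 3.48 in the library labelled WTOE and 0 in that labelled WT. SESN1 stood at 4.81 against 0.44, 3.82 and 4.24, a difference of 1.47 (SE 1.23), but lower than its 5.52 in the library labelled WT. TP53INP1, a p53 cofactor of stress and autophagy, stood at 3.95 against 0, 2.12 and 3.11, a difference of 1.88 (SE 1.2). Of the death genes, FAS, a death receptor, stood at 6.61 against 3.01, 4.68 and 6.18, a difference of 1.78 (SE 1.05), and exceeded all 3 control libraries as well. EDA2R, another receptor of that family, stood at 4.82, a difference of 1.04 from the mean of the 9. BAX, which opens the mitochondrial outer membrane, stood low inside the range at 3.24, where only R248W was lower at 3.19. FDXR, a mitochondrial reductase, stood at 4.11 against 2.06, 2.96 and 4.0. TP53I3, a quinone oxidoreductase, was the only target below the range, at 4.49 against 5.02, 5.59 and 6.56, a difference of -1.15 (SE 0.69). FAS, TP53INP1 and TP53I3 stayed outside the range under all 19 alternatives.

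**Figure D3:**
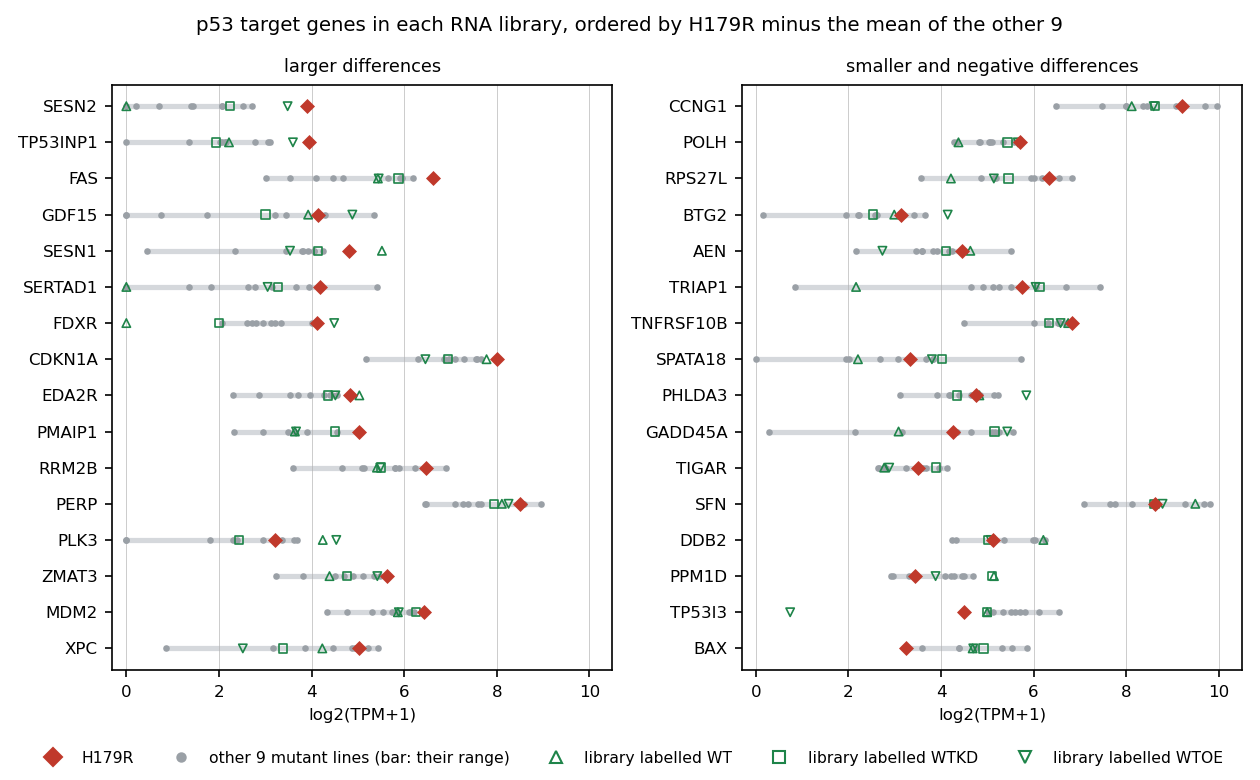
Levels in log2(TPM + 1) of tested p53 target genes, one gene per row, with H179R, the 9 other mutant lines and the control libraries labelled WT, WTKD and WTOE as separate markers. SESN2, TP53INP1, FAS and CDKN1A in H179R lie to the right of every other mutant line and TP53I3 lies to the left.

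RefSeq promoters (250 bases before to 50 after a start, GRCh38.p14) were scanned on both strands for the same decamer, which occurred in 2329 of 35116 promoters (6.63%). Of the 39 promoters matched to 27 tested p53 targets, 6 held it (15.4%). Of the 7 targets above the range, 6 matched with 12 promoters, and 3 promoters held it, one each of FAS, FDXR and SESN1. The SESN1 match is shown in capitals in the minus strand of chr6:109008989-109009077, where it starts 49 bases upstream of a RefSeq start that lies inside the longer SESN1 gene:
SESN1 promoter: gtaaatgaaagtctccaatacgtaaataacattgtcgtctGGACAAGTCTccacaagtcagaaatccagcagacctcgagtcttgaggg
A match describes letters and not binding. Over all genes, a WTOE peak lay between 2500 bases upstream and 100 bases downstream of a start in 6.72% of genes with an annotated start (993 of 14786), in 4.28% of those above the range (62 of 1448) and in 7.84% of those below it (28 of 357). Among the p53 targets, such peaks lay at CDKN1A, DDB2, PHLDA3 and RRM2B.

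Squamous differentiation genes had the largest median difference of the epithelial lists, 1.48, although most were silent. Of 24 listed genes 8 were tested, and all 8 were above the mean of the 9 others. Of the 8, 3 lay above their range, against 9.76% of all tested genes, and 16 of the 24 listed were at 0 in H179R. CNFN, a component of the cornified envelope, stood at 7.57 against 0, 4.52 and 6.34, a difference of 3.36 (SE 1.53), and was at 0 in the libraries labelled WT and WTKD. SPRR1B, a cross-linked precursor of the envelope, stood at 4.35, was at 0 in most of the 9 others and reached 2.59 in the highest, but stood at 5.93 in the library labelled WTOE. SCEL, a further envelope protein, stood at 3.54 against 0, 1.49 and 3.14, and at 3.96 in the library labelled WTOE. It was no longer counted above the range after quantile normalization, median-of-ratios scaling or GC correction. KRT10 (6.21) was above its range by less than the margin, and PI3 (5.29 against 0, 5.91 and 7.75) was inside it. The summed TPM of the list was 396 in H179R against 91.0, 165 and 361 in the 9 others. In bulk RNA, more cells of one state and more RNA per cell cannot be told apart.

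Genes of the basal layer included the abundant keratins KRT5 and KRT6A and several attachment genes. Of 16 tested, 4 lay above the range (25.0%, against 9.76% of all tested genes) and 0 below, and the median difference was 0.72, with 2 of the 10 lines higher. COL17A1, a hemidesmosome collagen, stood at 6.69 against 0.22, 5.32 and 6.62, and LAMA3, a chain of laminin-332, at 7.85 against 3.18, 6.81 and 7.47. DST, which links keratin to hemidesmosomes, stood at 6.96 against 4.74, 5.88 and 6.78 (difference 0.94 without Y234C). The control libraries stood higher for LAMA3 (8.26 to 8.61) and COL17A1 (7.0 to 7.85), and at 6.76 to 7.26 for DST. KRT15, a basal and progenitor keratin, stood at 4.07 against 0, 2.09 and 3.79. After median-of-ratios scaling, 1 gene of this list (KRT15) lay above the range and the median was 0.38, and after quantile normalization 2 genes did. The abundant keratins KRT5 and KRT6A (10.87 against 9.02, 10.19 and 10.98) were inside the range. The tested members lower than the mean of the 9 were also inside it. They were KRT14 (2.81, difference -0.96), KRT16 (0, difference -0.89), PLEC (difference -0.53) and ITGB4 (difference -0.03). Of 11 tested luminal genes, 2 lay above the range and 0 below, against 9.76% and 2.41% of all tested genes. Their median difference was 0.29, close to the 0.24 of all genes. Neither of the 2 lay above the range after quantile normalization or median-of-ratios scaling. The luminal keratins KRT7 and KRT18 were lower than the mean of the 9, by differences of -0.26 and -0.36, inside the range. EPCAM, an adhesion molecule, stood at 8.17 against 2.53, 7.58 and 8.14, and CLDN4, a tight junction claudin, at 2.78 against 0, 0 and 1.79. AGR2, a secretory pathway isomerase of luminal cells, stood at 3.99 against 0, 0 and 1.92, a difference of 3.59 (SE 0.89). AGR2 reached a level of 1 only in H179R, R273C (1.92) and the library labelled WTOE (2.69). CLDN4 did so only in H179R, Y234C (1.79) and the library labelled WTKD (1.81). Both genes passed the filter only through their H179R level.

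EGF-family ligands are autocrine growth factors of these cells. EPGN, or epigen, stood at 8.84 in H179R against 2.87, 7.07 and 8.14, a difference of 2.58 (SE 1.42), and its levels in the 3 control libraries were also high, between 8.31 and 8.4. NRG2 was above the range at 1.98 against 0, 0 and 1.64, and so was the receptor inhibitor LRIG1, at 3.63 against 0.08, 2.86 and 3.40. AREG, the most abundant ligand, was inside the range at 9.26 against 8.32, 9.08 and 10.39. Of 13 tested genes of this list, 3 were above (23.1%, against 9.76%) and 0 below, and the median difference was 0.70. With log2(TPM + 5) only EPGN was above and the median was 0.24, and after quantile normalization the median was 0.25. The median was the highest of the 10 lines, but after the median of all genes was subtracted from each line H179R (0.46) stood behind G245S (0.48). Among S100 proteins S100A4, a calcium-binding protein linked to motility, stood at 8.25 against 3.09, 6.30 and 7.08, a difference of 2.67 (SE 1.14). It stood at 1.35, 5.29 and 2.19 in the libraries labelled WT, WTKD and WTOE, all lower than in H179R. S100A4 was the 1 member of 12 tested S100 genes above the range, close to the 9.76% of all tested genes. The median difference of the S100 list was -0.0009, lower than the 0.24 of all genes.

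Mitochondrial complex I, which passes electrons from NADH to ubiquinone, had 37 tested subunits. Of these 7 were above the range (18.9%, against 9.76% of all tested genes) and 1 was below it, 30 of 37 were above the mean of the 9, and the median difference was 0.63, the highest of the 10 lines, with Y163C next at 0.45. NDUFS4, an accessory subunit, stood at 9.22 against 5.84, 7.51 and 8.96, a difference of 1.83 (SE 0.78). NDUFA13 stood at 4.79 against 1.13, 3.44 and 3.93, and NDUFB6 at 7.34 against 4.44, 6.15 and 6.89. NDUFB5, NDUFA8 and NDUFB2 were also above, with differences of 1.21, 1.14 and 1.01, of which NDUFA8 was 0.97 without R273H. NDUFA7, at 5.65 against 0, 0 and 3.74, is uncertain, since another annotated gene overlaps its locus. NDUFB10 stood below the range at 7.33, a difference of -1.01. The summed TPM of the list was 6877 against 4045, 4867 and 6394 in the 9 others. The humanin-like genes, whose sequences resemble mitochondrial ribosomal RNA, also had their highest summed TPM in H179R, 89815 against 21253, 58821 and 69077, and their part in the result was not tested.

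Antioxidant genes driven by NRF2 were above the range in 4 of 22 (18.2%, against 9.76% of all tested genes) and below it in 0, with a median difference of 0.62. After GC correction only AKR1C1 of these lay above, with a median of 0.25, and after median-of-ratios scaling 2 genes lay above and 1 below, with a median of 0.28. TXN, or thioredoxin, stood at 10.95 against 7.36, 9.52 and 10.89. AKR1C1, an aldo-keto reductase, stood at 5.03 against 1.07, 3.61 and 4.16, and its relative AKR1C3 at 6.67 against 3.25, 5.81 and 6.51. These reductases are close paralogs, and reads may be split between them. SLC7A11, the cystine importer, stood at 6.65 against 4.36, 5.48 and 6.33. FTL, the light chain of ferritin, was inside the range at 12.15 against 12.08, 12.59 and 13.66.

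Zinc handling genes were listed because the replaced histidine holds zinc. The list held 18 tested genes, all zinc transporters except MTF1, a metal-responsive transcription factor. Of the 18, 4 were above the range (22.2%, against 9.76%), all of them transporters, and 0 below, with a median difference of 0.52. SLC30A1, which exports zinc at the plasma membrane, stood at 7.15 against 4.26, 6.26 and 7.05, and SLC30A5 and SLC30A6, which fill the secretory pathway, at 6.05 against 3.11, 4.88 and 5.75 and at 5.58 against 3.39, 4.81 and 5.13. SLC39A11, an importer, stood at 3.82 against 0, 3.10 and 3.80. The margins are small: without Y234C the count was 1, without R273H 2, and after quantile normalization 0. Of 7 tested metallothioneins, zinc-storing proteins, 0 were above and the pseudogene MT1L was below, at 5.41 against 5.98, 7.61 and 8.55. MT2A, the most abundant, stood at 13.67, under the lowest of the 9 others (13.73), by a difference of -0.83 (SE 1.03).

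Replication-dependent histone genes, which are switched on in S phase, formed the list with the lowest median difference, -0.75, the lowest of the 10 lines, with Y220C at -0.58 and R248W at -0.51. Of 20 listed genes 18 were tested, 0 lay above the range and 5 below (27.8%, against 2.41% of all tested genes), and 4 of 18 were above the mean of the 9. HIST1H3B, an H3 gene, stood at 10.37 against 10.77, 11.83 and 13, a difference of -1.56 (SE 0.79). The linker histones HIST1H1E (9.70 against 10.11, 11.13 and 12.76) and HIST1H1D (7.78 against 8.17, 9.81 and 10.46) were below as well, with differences of -1.57 (SE 0.82) and -1.82 (SE 0.71). HIST1H3A was listed at 0 against 2.27, 3.86 and 9.58, and HIST1H2AB at 0 against 1.09, 3.20 and 5.79, where the library labelled WT was also at 0. The summed TPM of the list was 5127 in H179R against 6125, 11896 and 25818. Near-identical histone copies can share reads, which makes single genes uncertain. All 5 stayed below the range under each alternative that gave them a value, which for HIST1H3B was 16 of 19 and for HIST1H1E 18. Of 40 other cell cycle genes 0 were above the range and only MYBL2 was below, at 6.68 against 6.89, 7.78 and 9.43, and the median of that list was 0.00.

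The histone promoters share a layout that the members were not chosen for. Of 18 promoters matched to 16 tested histone genes, 17 held CCAAT or ATTGG in the 250 bases before the start (94.4%, against 32.0% of all promoters) and 14 held TATAAA or TTTATA (77.8%, against 10.7%). None held the p53 decamer. The stretches before the starts of the H3 and H2A genes listed at 0 in H179R are shown with these motifs in capitals, HIST1H3A at chr6:26020301-26020450 on the plus strand and HIST1H2AB at chr6:26033619-26033768 on the minus strand (GRCh38.p14, RefSeq):
HIST1H3A: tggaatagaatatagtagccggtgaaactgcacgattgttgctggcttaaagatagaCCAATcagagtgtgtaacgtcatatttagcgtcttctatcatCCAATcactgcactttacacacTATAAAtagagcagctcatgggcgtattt
HIST1H2AB: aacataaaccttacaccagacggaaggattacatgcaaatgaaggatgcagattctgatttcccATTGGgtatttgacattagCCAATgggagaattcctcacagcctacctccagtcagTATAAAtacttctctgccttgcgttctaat

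Glycolysis and hypoxia genes were below the range in 4 of 27 (14.8%, against 2.41% of all tested genes). They were above it in 1 (3.70%, against 9.76%), with a median difference of -0.22. GAPDH stood at 11.65 against 11.74, 12.75 and 13.74, a difference of -1.11 that was -0.99 without R248Q, and ALDOC, an aldolase, at 0.59 against 1.06, 3.39 and 4.34. BNIP3, which marks mitochondria for removal in hypoxia, stood at 3.29 against 3.80, 5.04 and 5.73, and VEGFA, the angiogenic factor, at 1.88 against 2.40, 2.89 and 3.64. LDHA was inside the range (12.06 against 11.06, 12.54 and 13.51), and ADM, a hypoxia-induced peptide, was above it at 4.62 against 0.41, 3.73 and 4.44. The summed TPM of the list was 10993 against 13013, 19122 and 21882. Cytosolic ribosomal protein genes were below the range in 4 of 65 (6.15%, against 2.41% of all tested genes). They were above it in 1 of 65, against 9.76% of all tested genes, with a median of -0.01. RPL7A stood at 10.60 against 11.03, 12.01 and 12.59, and RPS16 at 10.60 against 11.05, 11.73 and 13.06. RPS15 and RPS27 were the others below. RPL21, the one above at 6.86 against 1.33, 4.42 and 5.11, has many pseudogene copies that can share its reads.

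**Figure D4:**
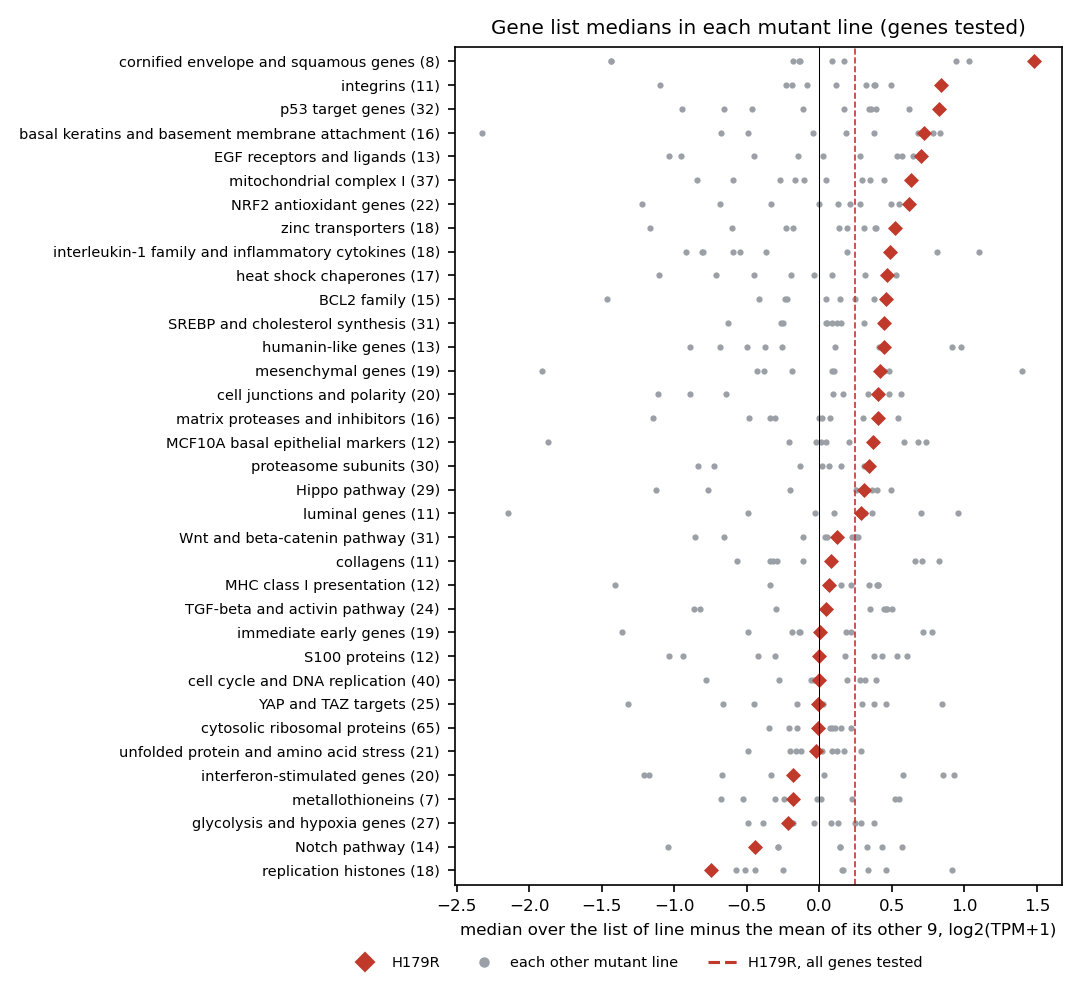
Median difference (log2) of each list with at least 7 tested genes in each mutant line, computed for every line against its own 9 others, with H179R marked apart from the other lines. H179R has the highest median of the 10 lines for p53 targets (0.82), complex I (0.63) and squamous genes (1.48) and the lowest for replication histones (-0.75). Its median is also the highest for integrins (0.84), EGF receptors and ligands (0.70), NRF2 genes (0.62) and zinc handling genes (0.52). The same holds for BCL2 family genes (0.46) and cholesterol synthesis genes (0.45).

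The genes outside the range also differed in base composition. The median GC content of transcripts was 46.7% over all tested genes, 43.2% in those above the range and 54.9% in those below it. In the tenth of genes with the lowest GC (median 36.4%), 15.9% lay above the range, 0.676% lay below, and the median difference was 0.64. In the tenth with the highest GC (median 62.8%), 5.75% lay above and 6.42% below, and the median difference was -0.26. Other lines had such a slope too: across genes, r of the difference with GC was -0.23 in H179R, -0.28 in Y220C, -0.27 in Y163C and 0.35 in Y234C. By chromosome, the median difference ran from -0.22 on chromosome 19 (median GC 57.3%) to 0.46 on chromosome 4 (42.3%). After each line was corrected for GC, a step chosen after the data were seen, 935 genes lay above the range and 1093 below. In those values 5 p53 targets lay above, 3 complex I subunits above, 1 zinc transporter above, 1 NRF2 gene above and 5 histones below, with list medians of 0.42, 0.35, 0.17, 0.25 and -0.62. The part of base composition in these results was not tested. By class, pseudogenes made up 11.4% of tested genes, 13.6% of those above and 19.6% of those below, and long non-coding RNAs 8.63%, 13.8% and 2.51%.

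**Figure D5:**
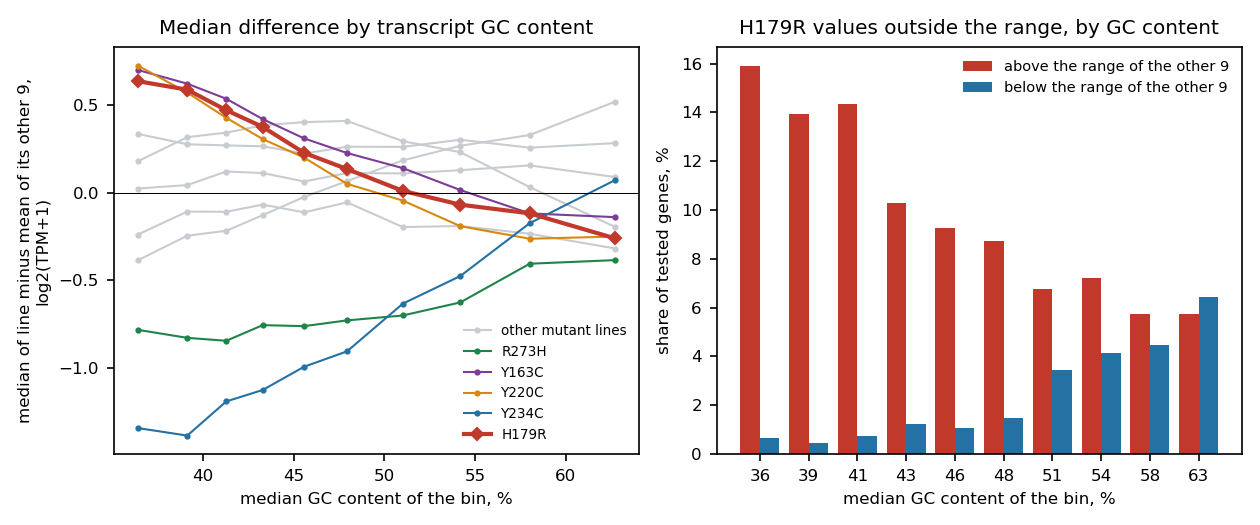
Share of tested genes above and below the range of the 9 others (percent) and median difference (log2) in 10 equal bins of transcript GC content (percent). The share above is 15.9% in the lowest bin and 5.75% in the highest, and the share below is 0.676% and 6.42%.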

How the data were processed

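RNA from MCF10A lines was amplified by single primer isothermal amplification and sequenced as paired ends. The deposited values are log2(TPM + 1) per gene, which the authors computed from STAR alignments to GRCh38 with Ensembl release 92, leaving out mitochondrial RNA. Duplication was high; the authors marked duplicates without removing them and used counts with duplicates removed as a check on overestimated levels, so low values may rest on few molecules. Amplification and TPM of very short transcripts could distort the values of small RNA genes. Depth is unknown, so no interval or floor is given. For ChIP, the authors used Bowtie2 2.1.0 for alignment, SAMtools 1.7 for filtering and MACS2 2.1.2.20181017 for peaks over input, and the deposited list gives fold enrichment over input, a ratio, and −log10 q-values. Only the WTOE list was used here.

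From these, the H179R level was compared with the mean and range of the 9 other mutant lines over genes with a level of 1 or more in at least 3 of 13 columns. limma 3.58.1 (R 4.3.3, eBayes with trend, Benjamini-Hochberg over all 14884 genes, two-sided) fitted H179R against the 9, assuming that the lone library varies like them. On simulated data with 200 planted genes it recovered 0% at a log2 effect of 2, 37.5% at 4 and 82% at 6. The columns are single libraries of separate lines, so p-values measure the spread among lines. GENCODE 44 gave coordinates (GRCh38) and GC content, and 98.9% of the IDs matched. Promoters are from RefSeq.

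The comparison and the 39 gene lists were chosen with earlier results of these data known. Genes named are the 15 farthest outside the range each way (gap of at least 1, level of at least 3, a symbol), CDKN1A, MDM2 and 1 further gene that is not reported here, up to 6 members of each list outside the range, the 2 of highest level, and the 10 lowest p. EDA2R, BAX, NDUFB2, NDUFB10 and the 20 protein-coding genes each way were added after the values were seen. Alternatives changed the pseudocount, filter, scaling, variance model and libraries.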

Additional observations from a re-analysis of the deposited data

How the results depend on the processing

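limma called 0 genes higher and 0 lower as reported. With log2(TPM + 0.1) it called 1 lower, with log2(TPM + 5) 54 higher, and with no filter on low values 576 higher and 6 lower. Leaving out each other mutant line in turn gave 0 to 17 called higher (17 without Y220C, 13 without Y163C) and 0 to 1 lower. Genes above the range numbered 1453 as reported, 531 with a difference of at least 2, 880 with log2(TPM + 5), 858 with a filter of 3, 947 after quantile normalization, 883 after median-of-ratios scaling and 935 after GC correction, and 1350 to 1732 with a line left out. Genes below numbered 358, and 135, 220, 297, 609, 604 and 1093 in the same order, 657 without R273H and Y234C, and 365 to 479 with a line left out. The share of genes outside the range that were above was thus 80.2% as reported, 60.9% after quantile normalization, 59.4% after median-of-ratios scaling, 65.7% without R273H and Y234C and 46.1% after GC correction, and these steps moved the median of all genes from 0.24 to 0.00, -0.05, 0.05 and -0.04. No gene named in the text reversed its direction while outside the range, and of 142 named genes outside the range 91 stayed outside under every alternative that gave them a value. p53 targets above the range numbered 3 to 8 and their median 0.42 to 0.92, complex I 3 to 10 and 0.30 to 0.68, and histones below 3 to 6 and -1.09 to -0.59. Genes above with a WTOE promoter peak numbered 62, and 12 with a −log10 q-value of at least 3, and those below 28, and 6, or 16 within 1000 bases. The cause of these changes was not tested. GC correction and the limit to protein-coding genes were chosen after seeing the data. No paired analysis was possible because each line has 1 RNA library, so no replicate number is shared by libraries of 2 groups in a way that pairs them. Unknown read depth limits every low value.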

Other observations

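Genes of transcription and signalling pathways that the report has not covered gave small counts near the background of 9.76% above and 2.41% below. In the TGF-beta list the inhibitory factors SMAD7 (4.32 in H179R against 0, 2.22 and 3.41 as lowest, median and highest of the 9 others) and SMAD6 (2.56 against 0, 1.48 and 2.24) lay above the range, as did the common mediator SMAD4, and the median difference of the 24 tested genes was 0.05. In the Hippo list, 3 of 29 genes lay above the range and 2 below, among the latter TEAD3, a DNA-binding partner of YAP, at 0.59 against 1.82, 2.62 and 3.51. None of 25 tested YAP and TAZ targets lay outside the range. The Notch target HEY1 stood at 2.53 against 0, 0 and 1.97, while the median of the 14 Notch genes was -0.45, ninth of the 10 lines. Among 11 tested integrins, ITGB8 lay above the range (5.93, highest other 5.92, difference 0.99 without Y234C) and ITGA3 below (6.77, lowest other 6.78, difference -0.71 without R273H). The median difference of the integrins was 0.84, the highest of the 10 lines. After the median of all genes was subtracted from each line it was 0.60, behind Y234C at 0.64.

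Of 19 tested mesenchymal genes, 2 lay above the range and 1 below. TAGLN, an actin-binding protein, stood at 2.79 against 0, 0 and 2.32, whereas SNAI1, a repressor of E-cadherin, was listed at 0 against 0.31, 1.96 and 4.69. Of the fibroblast markers 5 of 8 were tested and 3 of 8 were at 0 in H179R. LUM, a matrix proteoglycan, stood at 3.64 against 0, 0 and 3.36, and COL1A1 at 1.76 against 0, 0.48 and 1.71. In the amino acid stress list PHGDH, the first enzyme of serine synthesis, was below the range at 4.30 against 4.56, 6.09 and 6.45, and DNAJB9, a chaperone of the endoplasmic reticulum, above it at 5.01 against 1.33, 4.14 and 4.91. Interferon-stimulated genes (20 tested) and MHC class I genes (12 tested) had 0 members outside the range on either side.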
